A study of Mus musculus with 6 samples.

Results

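The MAPK feedback genes described here encode dual-specificity phosphatases (DUSP), Sprouty proteins and SPRED proteins. They were defined by symbol as Dusp1, Dusp2, Dusp4, Dusp5, Dusp6, Dusp10, Spry1, Spry2, Spred1 and Spred2. Of these 10 genes, 9 had counts among the 11779 genes of the deposited table, all 9 passed the filter on low counts that left 10869 genes, and Dusp5 was not analysed here. Their RNA was measured by RNA-seq in long-term hematopoietic stem cells, the rare marrow cells that sustain blood production, sorted from female mice aged 8 weeks by presence of Sca-1, c-Kit and CD150 and absence of lineage markers and CD48. The WT group (genotype c-Mycfl/+, 3 libraries) carried 1 floxed Myc allele and no Cre. The HET group (genotype c-Mycfl/+Mx1Cre, 3 libraries) carried the same allele with Mx1-Cre, a transgene that makes the recombinase from the Mx1 promoter, active in many cell types under interferon. Deletion was induced with 3 intraperitoneal injections of poly(I:C) at 6 mg/kg. Whether WT mice were injected too is not spelled out in the design text. Because WT mice had no Cre, loss of a Myc allele and the presence of Cre cannot be told apart in this comparison. If WT mice were not injected, poly(I:C) itself cannot be told apart from these either. The libraries are numbered 1, 3 and 4 in each group, their titles call HET "KO", and no label says whether a library is 1 animal or a pool, so p-values measure the spread between these libraries.

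Mitogen-activated protein kinase (MAPK) cascades carry signals from receptors such as KIT through RAS, RAF and MEK to the kinase ERK, and stress signals to the kinases JNK and p38. The DUSP genes encode phosphatases that switch these kinases off. Sprouty proteins act between the receptor and RAF, and SPRED proteins bring the RAS inhibitor neurofibromin to the membrane. Many of these genes are themselves induced by the kinase activity they restrain, so their transcripts are widely read as a trace of recent MAPK signalling. In blood stem cells, ERK signalling downstream of cytokines takes part in the balance between rest and division.

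The 300-base promoter windows of 3 members are shown. Dusp1 and Dusp2 followed each other across libraries. Spred1, a member that varied little, is shown for contrast; its groups did not overlap, which held for 10.3% of all genes. The sequences are from RefSeq on GRCm38.p6 and run 5′ to 3′ from 250 bases before to 50 bases after the transcription start. Dusp1 lies at chr17:26508423-26508722 (minus strand), Dusp2 at chr2:127335909-127336208 (plus strand) and Spred1 at chr2:117120821-117121120 (plus strand). Capitals mark matches, on either strand, to CACGTG (the E-box that MYC-MAX dimers bind), TGACGTCA (the full cAMP response element), TGACG (its 5-base part, contained in the full element), TGANTCA (the AP-1 site), CCGGAAG (an ETS site) and the CArG box of serum response factor.
Dusp1: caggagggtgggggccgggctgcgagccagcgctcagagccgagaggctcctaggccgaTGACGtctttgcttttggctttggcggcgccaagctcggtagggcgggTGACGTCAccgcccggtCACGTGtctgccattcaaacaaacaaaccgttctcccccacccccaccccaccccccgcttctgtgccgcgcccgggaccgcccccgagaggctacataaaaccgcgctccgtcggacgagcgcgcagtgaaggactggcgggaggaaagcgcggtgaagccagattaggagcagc
Dusp2: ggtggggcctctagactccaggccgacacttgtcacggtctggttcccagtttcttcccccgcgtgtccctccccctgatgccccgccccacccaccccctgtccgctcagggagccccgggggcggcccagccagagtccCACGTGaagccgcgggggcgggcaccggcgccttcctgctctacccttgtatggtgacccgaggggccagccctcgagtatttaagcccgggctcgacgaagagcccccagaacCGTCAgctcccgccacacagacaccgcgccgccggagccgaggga
Spred1: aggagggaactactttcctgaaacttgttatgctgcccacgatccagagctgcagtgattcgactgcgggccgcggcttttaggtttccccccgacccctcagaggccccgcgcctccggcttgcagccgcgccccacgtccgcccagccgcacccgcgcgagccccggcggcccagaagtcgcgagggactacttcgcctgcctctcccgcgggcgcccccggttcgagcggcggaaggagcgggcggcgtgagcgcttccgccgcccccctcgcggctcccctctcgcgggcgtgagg
The E-box stood 126 bases before the start of Dusp1 and 109 bases before that of Dusp2, and in no other of the 9 members with a window, Dusp5 among them. Of 32851 windows of this length in the table, 7.15% held it. Dusp1 also held the full cAMP response element at 143 bases before its start, found in 1.79% of windows. The 5-base part was present in Dusp1, Dusp2, Dusp5 and Spred2 and in 20.8% of windows. Dusp5 held a pair of CArG boxes, 82 and 72 bases before its start, against 1.63% of windows with any. No member window matched the AP-1 site (7.81% of windows) or the ETS site (8.86%), and the Spred1 window matched none of the motifs. Dusp4 has no window in that table. Distances are from the RefSeq start. For Dusp1 and Dusp10 that start lies inside the longer gene span given below, which is from the GENCODE annotation. A match is a description of the letters only.

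Total counts were between 4249490 and 9886223 per library, with HET 1 the deepest. Myc, the targeted gene, had 447, 427 and 542 CPM (counts scaled to the same library size) in the WT libraries 1, 3 and 4 against 294, 387 and 372 CPM in the HET libraries of these numbers, so every HET library was below every WT library (edgeR adjusted p = 0.312). The counts cover the whole gene, including parts outside the floxed segment. The 9 markers of the sort were all measured, with Kit at 1090 to 1255 CPM over the 6 libraries. Of these 9, 2 had no overlap between the groups (22.2%, against 10.3% of all genes), and neither was called. Cd48, the marker whose absence was sorted for, was higher in HET but low throughout. It was at 1.66 to 3.24 CPM in WT and 3.69 to 8.94 CPM in HET (edgeR adjusted p = 0.849). Tek was lower in HET, at 87.0 to 96.8 CPM in WT and 74.5 to 80.75 CPM in HET (edgeR adjusted p = 0.995). Summed levels of neutrophil markers (10 of 10 in the table) ran from 147 to 656 CPM in WT and from 210 to 482 CPM in HET. Megakaryocyte markers (8 of 10) summed to between 892 and 914 CPM in WT and between 1033 and 1269 CPM in HET, without overlap. Taken singly, 1 of the 8 had no overlap (12.5%, against 10.3% of all genes). That gene was Itga2b, at 262 to 316 CPM in WT and 363 to 564 CPM in HET. Fitted log2 fold changes were above 0 in all 8 (median 0.42), while 49.3% of all genes were below 0. None of the 8 was called by edgeR. Monocyte (10 of 10), erythroid (6 of 10), B cell (4 of 10), T and NK cell (4 of 10) and stromal or endothelial (5 of 10) sums overlapped between the groups. The part of these other cell types in the results below was not tested, and in bulk libraries fewer cells of a type and less RNA per cell cannot be told apart.

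None of the 9 feedback genes was called as higher or lower in HET, which does not show that their levels were equal. The edgeR quasi-likelihood test (Benjamini-Hochberg adjustment over 10869 genes) called 0 of 9, against 0.258% of all genes (0.0368% higher and 0.221% lower in HET), and 0 of 9 had an unadjusted p under 0.05, against 5.22% of all genes. DESeq2 and limma-voom also called 0 of 9, with 0 at an unadjusted p under 0.05 in each. Fitted log2 fold changes ran from -0.57 for Dusp10 to 0.20 for Dusp1, with a median of -0.23 against 0.00 over all genes tested. They were below 0 in 6 members (Dusp4, Dusp10, Spry1, Spry2, Spred1 and Spred2) and above 0 in 3 (Dusp1, Dusp2 and Dusp6), while 49.3% of all genes were below 0. In 1 member, Spred1, all 3 HET libraries lay below all 3 WT libraries. That is 11.1% of the members, near the 10.3% of all genes without overlap, of which 5.64% were lower in HET and 4.69% higher.

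**Figure D1:**
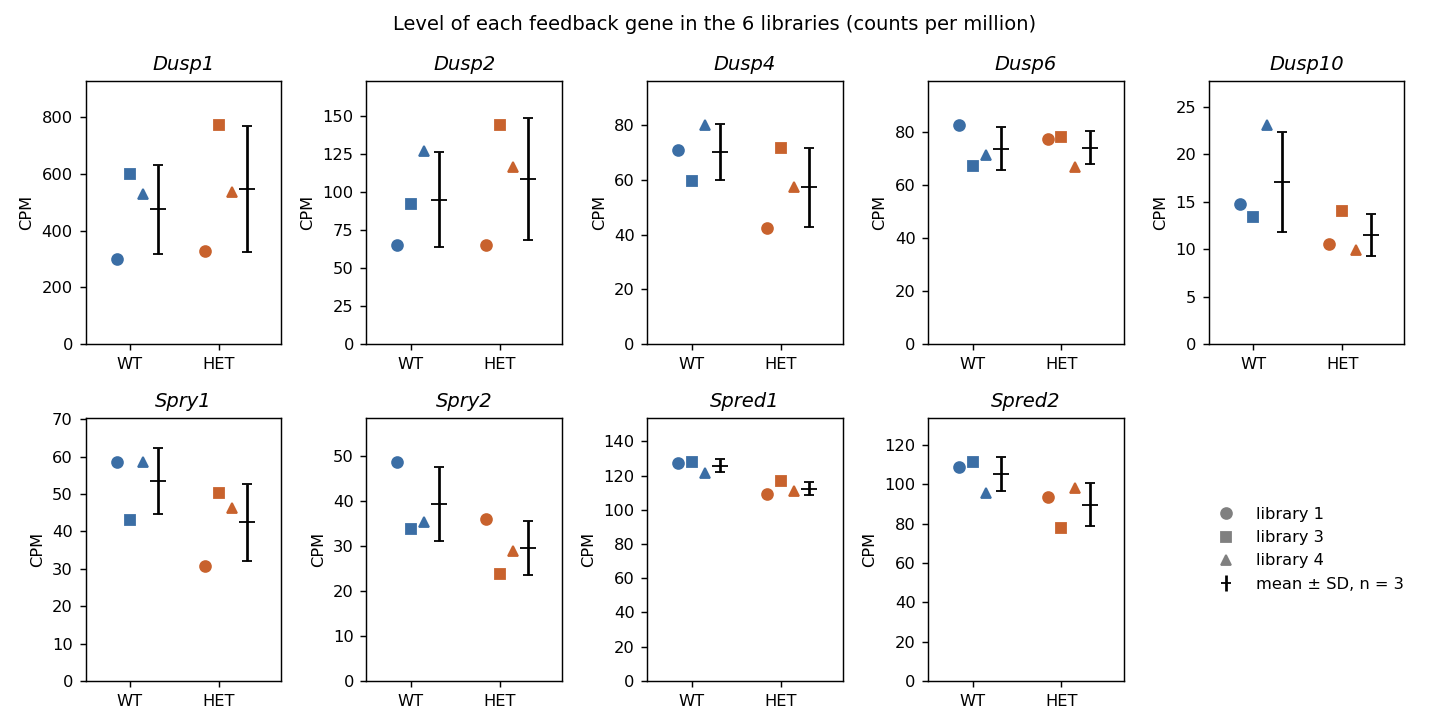
CPM of the 9 feedback genes (y axis, from 0, scaled per gene) in the WT and HET libraries, with 1 point per library, a symbol for each library number and the mean ± SD of 3 libraries beside the points. Dusp1 and Dusp2 are lowest in library 1 of both groups, and Spred1 is the gene whose HET points, at 110 to 117 CPM, all lie below its WT points, at 121 to 128 CPM.

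Among the phosphatases, the order of transcript level was set per kilobase of annotated exon, since raw CPM depends on transcript length. The exon lengths are GENCODE M21 unions and may differ from the annotation the authors counted with. In WT, Dusp1 had the highest level of the 9 members at 144 ± 47.3 CPM per kilobase, followed by Dusp2 at 47.3 ± 15.6 (SD, n = 3 each), and the WT ranges of these genes did not overlap. Dusp4 (25.6 ± 3.78), Dusp6 (23.5 ± 2.58), Spred2 (22.8 ± 1.85), Spry2 (18.8 ± 3.93), Spred1 (18.5 ± 0.557) and Spry1 (18.4 ± 3.07 CPM per kilobase) formed a middle group in which each gene's WT range overlapped that of the next in order. Dusp10 was lowest at 5.62 ± 1.74 CPM per kilobase, apart from Spry1 above it. The same genes stood first, next and last in HET, where Dusp1 reached 165 ± 67.0, Dusp2 54.1 ± 20.0 and Dusp10 3.78 ± 0.707 CPM per kilobase.

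Dusp1 (ENSMUSG00000024190; GRCm38 chromosome 17, 26505590 to 26562128, minus strand) encodes an inducible nuclear phosphatase of p38, JNK and ERK. It measured 299.7, 598.8 and 529.7 CPM in WT 1, 3 and 4, against 329.7, 773.3 and 535.9 CPM in HET 1, 3 and 4. The library numbered 1 was the lowest of both groups, HET 3 was the highest of all 6, and the groups overlapped. The fitted HET level was 115% of WT with a 95% interval of 49.4% to 266% (log2 fold change 0.20 ± 0.45 SE, edgeR adjusted p = 0.995). The sign turned without WT 1 (log2 fold change -0.05) or without HET 3 (-0.14). At 1661 counts or more per library, counting error was at most 2.45% of a value, while the libraries varied by 32.9% in WT and 40.6% in HET (coefficient of variation).

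Dusp2 (ENSMUSG00000027368; chromosome 2, 127336159 to 127338376, plus strand) encodes a nuclear phosphatase found mainly in blood cells. Its levels were 64.9, 92.2 and 127.1 CPM in WT 1, 3 and 4, against 64.9, 143.9 and 116.1 CPM in HET 1, 3 and 4. As with Dusp1, the libraries numbered 1 were lowest in both groups and HET 3 was highest. HET was at 114% of WT (95% interval 61.5% to 211%; log2 fold change 0.19 ± 0.36 SE, edgeR adjusted p = 0.995), and the sign turned without WT 1 (-0.03) or HET 3 (-0.07). Leaving out HET 1 gave 0.46 for both Dusp1 and Dusp2, with edgeR adjusted p-values of 0.889 and 0.623.

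Dusp4 (ENSMUSG00000031530; chromosome 8, 34807297 to 34819894, plus strand) encodes a nuclear phosphatase related to that of Dusp1. It measured 71.1, 59.5 and 80.1 CPM in WT 1, 3 and 4, against 42.6, 71.7 and 57.5 CPM in HET 1, 3 and 4. HET 1 was the lowest library, and HET 3 lay inside the WT range. The HET level was 81.2% of WT (95% interval 61.1% to 108%; log2 fold change -0.30 ± 0.20 SE, edgeR adjusted p = 0.995). The log2 fold change was -0.12 without HET 1 and -0.49 without HET 3.

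Dusp6 (ENSMUSG00000019960; chromosome 10, 99263231 to 99267489, plus strand) encodes a cytoplasmic phosphatase specific for ERK and is often used as a readout of ERK activity. It gave 82.6, 67.0 and 71.3 CPM in WT 1, 3 and 4, against 77.1, 78.1 and 66.8 CPM in HET 1, 3 and 4. The groups covered nearly the same range. HET was at 100.5% of WT (log2 fold change 0.01 ± 0.16 SE, edgeR adjusted p = 0.998), and the 95% interval of 79.7% to 127% bounds the difference these libraries leave possible. Its sign changed in 4 of the 6 fits that left out 1 library, with log2 fold changes from -0.06 to 0.10.

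Dusp10 (ENSMUSG00000039384; chromosome 1, 184013302 to 184075636, plus strand) encodes a phosphatase that prefers JNK and p38 to ERK. It was the member with the fewest counts, 51 to 107 per library, where counting error alone reaches 14%. Its levels were 14.8, 13.4 and 23.1 CPM in WT 1, 3 and 4, against 10.6, 14.0 and 9.9 CPM in HET 1, 3 and 4. WT 4 stood highest, and HET 3 lay between WT 3 and WT 1. HET was at 67.4% of WT, the lowest share among the members, with a 95% interval of 41.7% to 109% (log2 fold change -0.57 ± 0.33 SE, edgeR adjusted p = 0.980). Without WT 4 the log2 fold change was -0.29.

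Spry1 (ENSMUSG00000037211; chromosome 3, 37639947 to 37644598, plus strand) and Spry2 (ENSMUSG00000022114; chromosome 14, 105891947 to 105896819, minus strand) encode Sprouty proteins, inhibitors that act upstream of ERK. Spry1 had 58.6, 43.2 and 58.7 CPM in WT 1, 3 and 4, against 30.7, 50.2 and 46.4 CPM in HET 1, 3 and 4. Its lowest library was HET 1, and HET 3 and HET 4 lay between WT 3 and the other WT libraries. HET was at 78.8% of WT (95% interval 57.8% to 107%; log2 fold change -0.34 ± 0.21 SE, edgeR adjusted p = 0.995), and without HET 1 the log2 fold change was -0.15.
Spry2 measured 48.7, 33.8 and 35.3 CPM in WT 1, 3 and 4, against 35.9, 23.8 and 28.8 CPM in HET 1, 3 and 4. Here HET 1 was the highest HET library and the only one to overlap WT. The HET level was 75.5% of WT (95% interval 54.1% to 105%; log2 fold change -0.41 ± 0.23 SE, edgeR adjusted p = 0.980). Without HET 1 it was -0.58 with an adjusted p of 0.539, and without WT 1, the highest library, it was -0.22. Spry1 overlaps a predicted gene on the opposite strand over 710 exon bases, and how the counting treated strand is unknown here, so reads in that shared part of the 2906 exon bases of Spry1 could come from either gene.

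Spred1 (ENSMUSG00000027351; chromosome 2, 117121374 to 117182279, plus strand) and Spred2 (ENSMUSG00000045671; chromosome 11, 19924375 to 20024026, plus strand) were the steadiest members besides Dusp6. Spred1, the gene mutated in Legius syndrome, measured 127.6, 128.2 and 121.4 CPM in WT 1, 3 and 4, against 109.5, 116.9 and 110.9 CPM in HET 1, 3 and 4. All HET libraries lay below all WT libraries, and the coefficient of variation was 3.0% in WT and 3.49% in HET, below the 4.43% counting error of its lowest count. HET was at 89.4% of WT with a 95% interval of 74.3% to 108% (log2 fold change -0.16 ± 0.13 SE). Neither the edgeR adjusted p of 0.995 nor the exact two-sided permutation test (p = 0.1, the smallest that 3 against 3 libraries allow) passed 0.05.
Spred2 measured 108.8, 111.6 and 95.6 CPM in WT 1, 3 and 4, against 93.4, 77.6 and 98.2 CPM in HET 1, 3 and 4. The groups overlapped through WT 4 and HET 4, and HET 3 was lowest. HET was at 85.2% of WT (95% interval 69.0% to 105%; log2 fold change -0.23 ± 0.15 SE, edgeR adjusted p = 0.995), and the log2 fold change stayed between -0.29 and -0.14 when any 1 library was dropped.

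**Figure D2:**
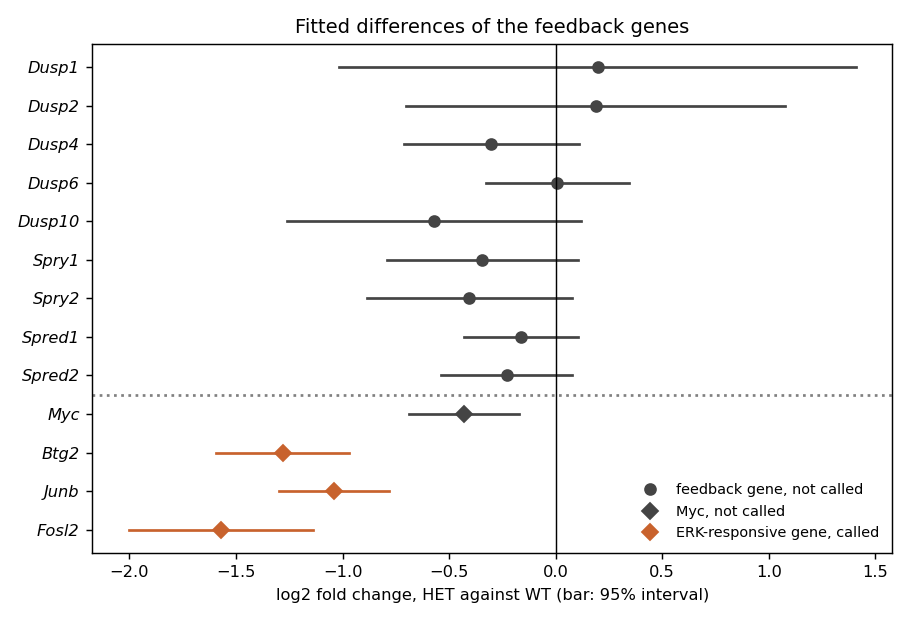
Fitted log2 fold change of HET against WT (x axis) with its 95% interval for the 9 feedback genes (circles), Myc and 3 ERK-responsive genes (diamonds). The interval of each feedback gene includes 0, while those of Btg2, Junb and Fosl2, which passed the adjusted threshold, lie below -0.78.

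Across the 6 libraries the members fell into separate patterns. Likeness was measured as the root mean square difference between log2 levels centred on each gene's own mean, so that a smaller value means a closer pattern, and it is given as a description. Of 36 member pairs, Dusp4 and Spry1 were closest (0.09 log2 units), both lowest in HET 1. Dusp6 with Spred1 (0.14) and Spred1 with Spred2 (0.14) were next, pairs that varied little. Dusp1 and Dusp2 followed at 0.20, although both varied widely, with a standard deviation of log2 CPM of 0.52 for Dusp1 and 0.49 for Dusp2. The least alike pair was Dusp1 and Spry2 (0.76): HET 3 was highest for Dusp1 and lowest for Spry2, and WT 1 was lowest for Dusp1 and highest for Spry2. The mean log2 level of the 9 members relative to the WT mean was -0.06, -0.07 and 0.13 in the WT libraries 1, 3 and 4, against -0.39, -0.00 and -0.16 in the HET libraries of these numbers, so HET 3 lay inside the WT range and HET 1 and HET 4 below it.

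The genes closest in pattern to the 3 most variable members were sought among all tested genes whose average log2 CPM reached 2. For Dusp1 they were Sirt5 (0.12 log2 units), Fosb (0.13) and Plod1 (0.13). Fosb, an AP-1 subunit and itself an immediate early gene, measured 561, 871 and 766 CPM in WT 1, 3 and 4, against 509, 1253 and 881 CPM in HET 1, 3 and 4. It was low in the libraries numbered 1 and highest in HET 3, as Dusp1 was. For Dusp2 the closest were Zfp748 (0.08), Zfp36 (0.12) and the homeobox gene Hoxb3 (0.13). Zfp36, which encodes an RNA-binding protein that promotes mRNA decay, measured 440, 614 and 715 CPM in WT 1, 3 and 4, against 442, 821 and 671 CPM in HET 1, 3 and 4. For Dusp10 they were Rps12 (0.10), the homeobox gene Hlx (0.12) and the adhesion gene Icam1 (0.13). Rps12 is uncertain because ribosomal protein genes have near-identical pseudogenes. The E-box found in the Dusp1 and Dusp2 windows was in neither the Fosb nor the Zfp36 promoter window. The Fosb window held TGACG 60 bases before its start. The Zfp36 window held the ETS site 92 bases and a CArG box 58 bases before its start. Such matches describe the letters only.

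**Figure D3:**
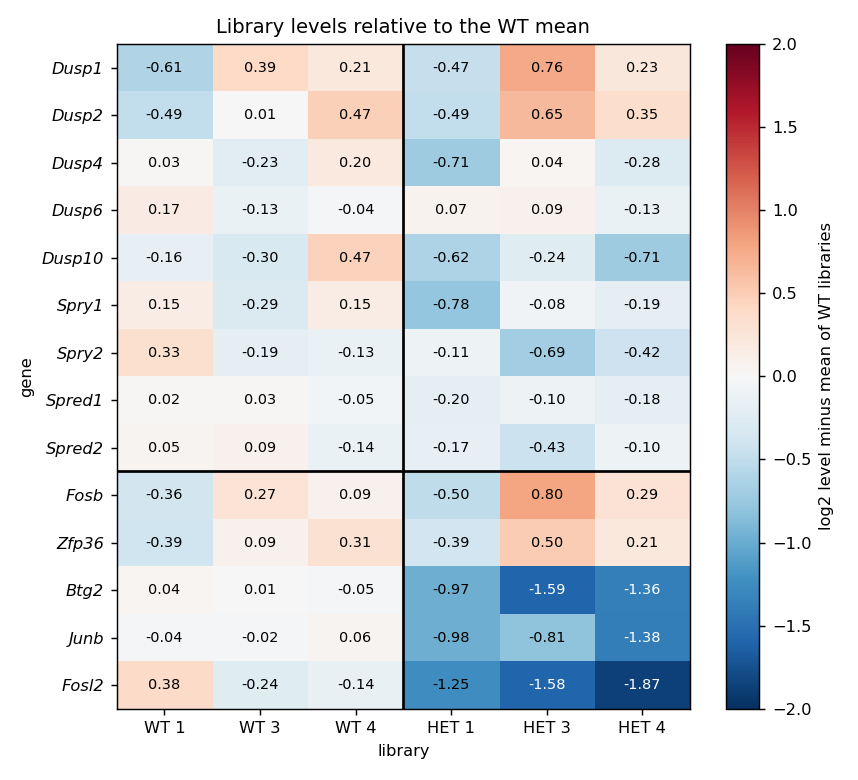
Log2 level (CPM plus 0.5) of each gene (rows) in each library (columns) minus its mean over the WT libraries, for the 9 feedback genes and, below the line, 5 ERK-responsive genes. Fosb and Zfp36 share with Dusp1 and Dusp2 low values in WT 1 and HET 1 and high values in HET 3 (0.80 for Fosb and 0.76 for Dusp1), while Btg2, Junb and Fosl2 are lower in every HET library than in any WT library.

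The feedback genes were set beside the pathway they act on, through gene lists that were written with earlier results of these data known. None of 10 other phosphatases of the DUSP type tested, of 9 Sprouty and SPRED relatives and partners, of 19 receptors, of 29 genes of the RAS, RAF, MEK and ERK core, of 22 other RAS and RAF inhibitors or of 26 JNK and p38 pathway genes was called by edgeR. At an unadjusted p under 0.05 these lists together held 1 gene, while 5.22% of all genes were under it. That gene was Ptprc, which encodes the phosphatase CD45. Ptprc stood in the inhibitor list, although CD45 is not itself a direct inhibitor of RAS or RAF. The mean of Ptprc was 165 ± 51.6 CPM in WT against 224 ± 17.5 in HET (SD, n = 3 per group, edgeR adjusted p = 0.835). It passed without WT 1 (edgeR adjusted p = 0.0496). Medians of the 6 lists lay between -0.08 for the Sprouty and SPRED relatives and 0.03 for the JNK and p38 genes.
By smallest p, the other phosphatases were led by Dusp12 (log2 fold change 0.73 ± 0.41 SE), Dusp7, a cytoplasmic ERK phosphatase (0.25 ± 0.26), and Dusp3 (-0.12 ± 0.20), the relatives and partners by Tesk1 (-0.32 ± 0.20), Caprin2 (-0.32 ± 0.26) and Cbl (-0.11 ± 0.11), a ubiquitin ligase that Sprouty proteins bind. The receptors were led by Il3ra (-0.48 ± 0.27), Cxcr4 (0.35 ± 0.20) and Csf2rb (0.39 ± 0.23), the ERK core by the adaptor gene Gab2 (0.30 ± 0.17), Ywhab (0.14 ± 0.11) and Hras (-0.30 ± 0.25). In the inhibitor list Ptprc was followed by Rassf5 (-0.19 ± 0.14) and Rasal2 (0.32 ± 0.25). The JNK and p38 genes were led by Mapk12 (0.81 ± 0.45), Map3k3 (0.31 ± 0.18) and Map2k3 (-0.28 ± 0.16). Each of these had an edgeR adjusted p of at least 0.835.

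The last list, called ERK-responsive here, held genes that respond to ERK. It also held genes of kinases and transcription factors that act downstream of ERK, such as Rps6ka1, Mknk1, Elk4 and Srf. Of 45 tested, 3 were called lower in HET (Btg2, Junb and Fosl2), 0 were called higher and 42 did not pass. Over all genes, 0.221% were called lower and 0.0368% higher. At an unadjusted edgeR p under 0.05 the list held 17 of 45 genes, or 16 of 44 without Myc, against 5.22% of all genes. In 16 of the 45 (35.6%) the groups did not overlap, 14 lower and 2 higher in HET, beside 10.3% of all genes, and the median over the 45 was -0.17 (log2). Myc, the targeted gene, is among the 45 and among the 14; without it the groups did not overlap in 15 of 44 (34.1%), 13 of them lower in HET, and the median was -0.13. Junb, an AP-1 subunit, measured 704, 714 and 755 CPM in WT 1, 3 and 4, against 367, 413 and 277 CPM in HET 1, 3 and 4 (log2 fold change -1.04 ± 0.12 SE, edgeR adjusted p = 1.948e-04). For Btg2, an antiproliferative gene, the fitted log2 value was -1.28 ± 0.15 (SE; edgeR adjusted p = 1.679e-04), and for Fosl2, another AP-1 subunit, -1.57 ± 0.19 (0.00751). Fosl2 missed the threshold without HET 3 (adjusted p = 0.0734). The E-box was in none of the 300-base windows of Btg2, Junb and Fosl2. Btg2 held the full cAMP response element 166 bases before its start, and Junb the 5-base part 106 bases before its start. These matches too describe the letters only. The list shares no gene with the 9 members, and no test compared the lists with each other.

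**Figure D4:**
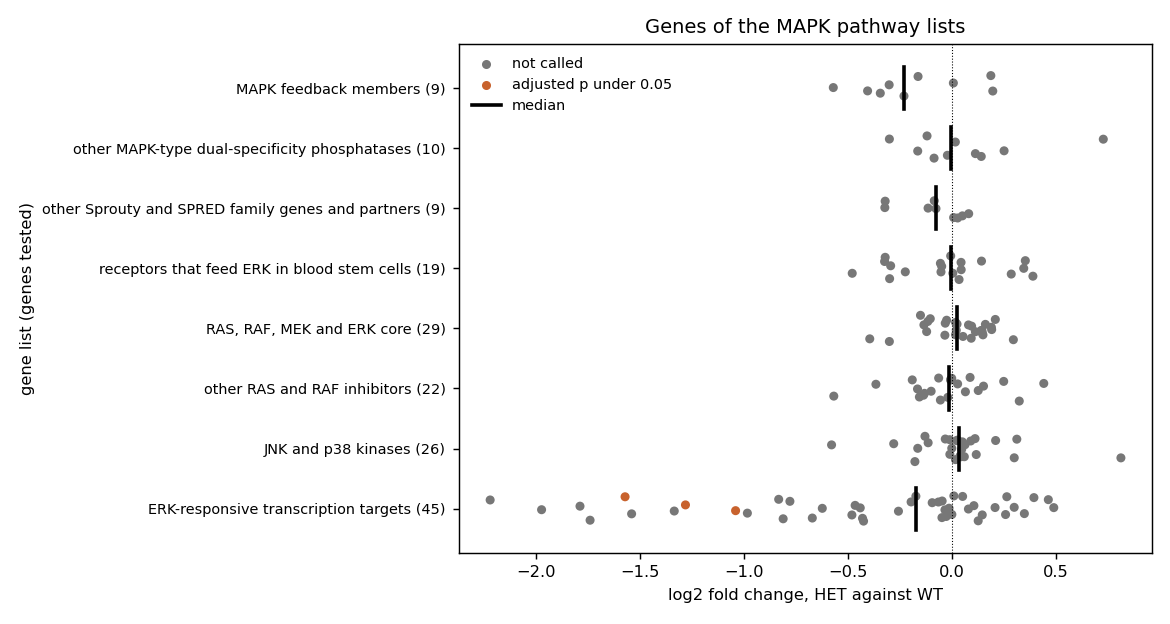
Log2 fold change of HET against WT (x axis) for every tested gene of the feedback set and of 7 pathway lists (rows, number tested in brackets), with a bar at each list's median. The 3 genes past the adjusted threshold are all in the ERK-responsive list, and the feedback genes lie between -0.57 and 0.20.

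A few further genes often read beside Dusp6 and the Sprouty genes as ERK output were chosen after their values were seen. Spry4 had 6.13, 6.77 and 9.78 CPM in WT 1, 3 and 4, against 5.36, 7.85 and 8.38 CPM in HET 1, 3 and 4. Etv5, an ETS factor induced by ERK, measured 42.8, 41.0 and 45.6 CPM in WT and 56.6, 50.2 and 52.0 CPM in HET in the same order. Every HET library of Etv5 was higher, as held for 4.69% of all genes (log2 fold change 0.30 ± 0.18 SE, edgeR adjusted p = 0.987). Phlda1 went the other way on average, with 9.46 ± 3.47 CPM in WT against 4.72 ± 1.45 in HET (SD, n = 3 per group; edgeR adjusted p = 0.950). Ccnd1, which encodes cyclin D1, measured 71.7 ± 6.05 and 69.4 ± 10.6 CPM (adjusted p = 0.995). None of these passed, and their fitted values pointed in different directions. They do not stand for the ERK-responsive list above. In that list fitted values were below 0 in 30 of 45 genes and above 0 in 15, while 49.3% of all genes were below 0.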

How the data were processed

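The authors deposited read counts as whole numbers, 1 row per gene and 1 column per library, and these were used unchanged. FastQC, STAR 2.5.2b, edgeR, limma and mm10 are named in the submitters' processing notes without role or order. The kit, the counting tool, its gene models and its strand setting were not given in the sources used here: the protocol labels belong to another study and were ignored. Every gene exceeded 1.01 CPM in at least 2 libraries, so low genes had been removed before deposit.

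HET was compared with WT using edgeR 4.0.16 (R 4.3.3): filterByExpr (910 of 11779 genes removed), TMM scaling, robust quasi-likelihood F test with group as the only term, and Benjamini-Hochberg adjustment over 10869 genes at 0.05. The biological coefficient of variation was 20.7%. Standard errors and 95% intervals come from the F statistic and its degrees of freedom. CPM values are on TMM-scaled library sizes, and log2 levels add 0.5. Positions and exon lengths are those of GENCODE M21 (GRCm38, the same assembly as mm10). DESeq2 1.42.0 and limma 3.58.1 (voom) were alternatives, with other scalings and filters, the library number as a block, HET 1 thinned to 5008785 counts, and each library left out. Scripts were tested on simulated counts.

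The members and lists were chosen with earlier results of these data known. Text names the members, Myc, called list genes or otherwise the 3 of smallest p per list, and the 3 genes closest in pattern to each of the 3 most variable members. The library numbers were not taken to pair libraries. Values of a few genes are left out here. Groups of 3 were not tested for outliers.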

Additional observations from a re-analysis of the deposited data

How the results depend on the processing

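No feedback gene was called in the main fit or in any of 14 alternatives. Those gave 0 members at an unadjusted p under 0.05, except 1 without HET 1 (Spry2) and 1 without HET 3 (Dusp4). The members' median log2 fold change was -0.23 with the replicate block and between -0.29 and -0.14 when 1 library was left out. Leaving out 1 library moved Dusp1 between -0.14 and 0.46, Dusp2 between -0.071 and 0.46 and Dusp6 between -0.057 and 0.10, each with changes of sign. The number of members whose groups did not overlap was 1 to 3 in those fits (Spred1 in every one, with Dusp10, Spry1, Dusp4, Spry2 or Spred2 in some), where 17.6% to 24.1% of all genes had no overlap because fewer libraries are compared. Over all genes, 28 calls became 57 with DESeq2, 49 with the replicate block and 10 to 68 with 1 library left out (10 without HET 4, 11 without WT 1, 68 without HET 1). Pathway list calls were 3 in the main fit, 5 with DESeq2, 5 with limma-voom, 5 with the replicate block and 3 to 7 with 1 library left out, 7 of them without HET 1. The replicate block narrowed the standard error of Dusp1 from 0.45 to 0.11 log2 units, with a log2 fold change of 0.17 and an edgeR adjusted p of 0.952. Same-numbered libraries deviated from their group means with correlations across genes of 0.11, -0.05 and 0.07, not every library was closest to its own number, and no label says that a number pairs them. With 3 libraries a group, the interval of Dusp1 leaves differences from 0.494-fold to 2.66-fold possible, and that of Spred1 from 0.743-fold to 1.07-fold.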

Other observations

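Among the 45 tested genes of the ERK-responsive list, the one closest in library pattern to Dusp4 was Myc (root mean square difference 0.13 log2 units). Myc was also the closest to Spry1 (0.15). For Dusp10 the closest was Hbegf (0.13), followed by Myc (0.20). Spry2 lay closest to Zfp36l1 (0.12), Dusp6 to Elk4 (0.11) and Spred1 to Mcl1 (0.10). These are descriptions over 6 libraries of 2 groups, with no test, and genes of low variation are close to one another by construction. The measure also includes the difference between the groups, so genes with like fitted values are drawn together. Fitted log2 fold changes were -0.30 for Dusp4, -0.34 for Spry1 and -0.43 for Myc.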
